A study of Mus musculus with 2 samples.

Results

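R-spondins are secreted proteins that make cells more sensitive to WNT signals, and the 9 genes described here are the 4 R-spondin genes (Rspo1 to Rspo4), the genes of their LGR receptors (Lgr4, Lgr5 and Lgr6) and those of the membrane ubiquitin ligases Rnf43 and Znrf3. They were taken as the gene probes whose accession maps to one of these symbols. All 9 were on the array, with 1 probe each, among 32103 genes. Of these 9, 7 were tested among 21337 genes, and the probes of Rspo4 and Lgr6 were not well above background.

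RNF43 and ZNRF3 tag Frizzled WNT receptors for removal from the cell surface. An R-spondin that bridges an LGR receptor and one of these ligases takes the ligase off the membrane, so that Frizzled stays and a WNT ligand acts more strongly. RNF43, ZNRF3 and LGR5 are themselves targets of canonical WNT signalling in many tissues, which makes the ligases a negative feedback. In the developing ureter, WNT ligands from the epithelium act on the surrounding mesenchyme, the later smooth muscle and connective tissue.

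The tissue was the ureter of wildtype NMRI mouse embryos (mixed sex) at stage E12.5. Explants lay on transwell membranes for 18 h. The medium held 10 µg/ml of NOGGIN, which traps bone morphogenetic proteins (BMPs) outside the cell, or, for control cultures, none. The data are 2 Agilent 2-colour arrays, replicates 1 and 2, each with 1 NOGGIN and 1 control culture. By the dyes in the labels, the NOGGIN sample was in the green channel on replicate 1 and in the red channel on replicate 2. The labels give neither the number of ureters per culture nor the origin of each replicate. The p-values therefore measure the spread between these samples, which may be technical, together with a spread borrowed from all genes. The dyes are exchanged between the arrays and the fit has no dye term. Any dye effect particular to a gene is thus part of its spread and cannot be told apart from a difference between replicates. RNA came from whole ureters, in which fewer cells of a type and less RNA per cell cannot be told apart.

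The direction of every ratio follows the dyes in the labels, and values are given as NOGGIN-labelled over control-labelled channel. In the table of fold changes that the authors deposited, the sign runs the other way. The comparison used 21792 probes well above background, with a mean log2 signal above 8 and no deposited fold change of exactly 1. On them the deposited log2 values had a Pearson r of -0.983 on replicate 1 and -0.984 on replicate 2 with the ratios used here. Each r is a description across probes of 1 array. All 14 values of the 7 tested genes, 7 on each array, have the other sign there. Of 9 BMP readout genes, which BMP signalling switches on in many tissues, 9 were higher in the NOGGIN-labelled channel (median log2 ratio 1.45), led by Id2 at 2.73 ± 0.87 (SD, n = 2). All of them, 9 of 9, were negative on both arrays in the authors' deposited table. "Lower" and "higher" below therefore name the labelled channels and not an effect of NOGGIN. Turning the sign exchanges these words and leaves sizes and p-values as they are. With the sign turned, all 9 BMP readout genes would be negative, as they are in the authors' deposited table. Which sign is right was not tested, and the labels and the deposited table stay in conflict.

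Promoter sequences, from RefSeq on build GRCm38.p6, were found for 5 of the 9 genes. Those of Rspo1 and Lgr4 are shown because they are, among the genes with a sequence, the ligand and the receptor with the largest differences. Each line gives the 250 bases before the start site, 5′ to 3′ on the gene's strand, and capitals mark matches to 3 motifs searched on both strands: GGCGCC and CAGAC, which SMAD proteins bind, and CTTTGA, the core of the site for the WNT effectors TCF and LEF. The Rspo1 window is chr4:124986180-124986429 on the plus strand and the Lgr4 window chr2:109917397-109917646 on the plus strand.
Rspo1: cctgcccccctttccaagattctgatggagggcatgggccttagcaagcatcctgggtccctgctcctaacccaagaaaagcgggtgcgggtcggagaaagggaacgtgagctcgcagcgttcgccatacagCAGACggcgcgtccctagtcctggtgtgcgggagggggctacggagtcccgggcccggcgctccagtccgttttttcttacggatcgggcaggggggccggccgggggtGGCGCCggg
Lgr4: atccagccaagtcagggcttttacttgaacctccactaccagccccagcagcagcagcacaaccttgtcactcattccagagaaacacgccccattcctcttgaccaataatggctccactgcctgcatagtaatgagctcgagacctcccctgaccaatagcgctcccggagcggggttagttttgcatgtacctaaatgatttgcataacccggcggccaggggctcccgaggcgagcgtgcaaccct

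The Rspo1 window holds 1 GGCGCC, 9 bases before the start site, and 1 CAGAC, 118 bases before it, and these matches do not overlap. The Lgr4 window holds 0 matches to the 3 motifs, as does that of Lgr6. Those of Rspo4 and of both annotated start sites of Rnf43 hold 1 CAGAC each. Among 32851 RefSeq windows of the same length, GGCGCC occurs in 9.59%, CAGAC in 42.2% and CTTTGA in 13.8%. The Rspo1 window has 66.8% G and C and the Lgr4 window 55.6%, against a median of 52.4% over all windows. A match is a stretch of letters and not a measured binding site.

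Among the ligands, Rspo1 and Rspo2 were lower in the NOGGIN-labelled channel on both arrays, and Rspo3 did not pass the test. Rspo1, best known for its role in ovary formation, had normalised log2 intensities of 9.06 and 8.96 in the NOGGIN-labelled channels of replicates 1 and 2, against 10.73 and 10.84 in the control-labelled channels. Both NOGGIN-labelled values lay below both control-labelled ones, and the closest pair differed by -1.67. The log2 ratio of Rspo1 was -1.67 on replicate 1 and -1.87 on replicate 2, a mean of -1.77 ± 0.15 (SD, n = 2) or 3.41-fold (adjusted p = 0.00338, limma). All 4 spots of the probe were below 0 on each array, from -1.78 to -1.59 on replicate 1 and from -1.93 to -1.80 on replicate 2. Before normalisation its mean spot signal was 392.8 (green) against 2050 (red) on replicate 1 and 630.4 (red) against 1512 (green) on replicate 2, NOGGIN-labelled first. The NOGGIN-labelled channel was thus the dimmer one in either dye. Rspo1 had the 18th lowest mean log2 ratio of the 21337 genes tested.

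Rspo2, a ligand needed for limb and lung development, had levels of 7.90 and 7.84 in the NOGGIN-labelled channels, against 8.86 and 8.67 in the control-labelled channels, again with no overlap. Its log2 ratio was -0.96 on replicate 1 and -0.83 on replicate 2, a mean of -0.89 ± 0.093 (SD, n = 2) or 1.86-fold (adjusted p = 0.00676, limma). Its spots ranged from -1.13 to -0.87 on replicate 1 and from -0.96 to -0.68 on replicate 2, with spot SDs of 0.12 and 0.14, the widest among the 7 tested genes. The raw signals of Rspo2 were 155.5 (green) in the NOGGIN-labelled against 576.4 (red) in the control-labelled channel on replicate 1. They were 300.6 (red) against 308.8 (green) on replicate 2, so that on this array the difference appears only after the brighter red channel is brought level with the green one. Median raw signals of all gene spots were 531.8 (red, NOGGIN-labelled) and 310.6 (green, control-labelled) there.

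Rspo3, needed for the blood vessels of the placenta and expressed in many embryonic mesenchymes, had levels of 13.24 and 13.43 in the NOGGIN-labelled channels, against 13.36 and 13.52 in the control-labelled channels. These values overlap between the conditions. The mean log2 ratio of Rspo3 was -0.10 ± 0.022 (SD, n = 2) and did not pass (adjusted p = 0.463, limma). Its 95% interval from the same fit, -0.29 to 0.080, leaves room for a value up to 1.22-fold lower. That of Rspo1 runs from -1.99 to -1.55 and that of Rspo2 from -1.09 to -0.69, so the 3 intervals do not overlap, though the differences between these genes were not themselves tested. Rspo4, known for its part in nail formation, had 1 spot well above background, in the NOGGIN-labelled channel of replicate 1, and 0 in the other channels. Its levels were 6.59 and 6.49 in the NOGGIN-labelled and 6.67 and 6.61 in the control-labelled channels, and it was not tested.

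**Figure D1:**
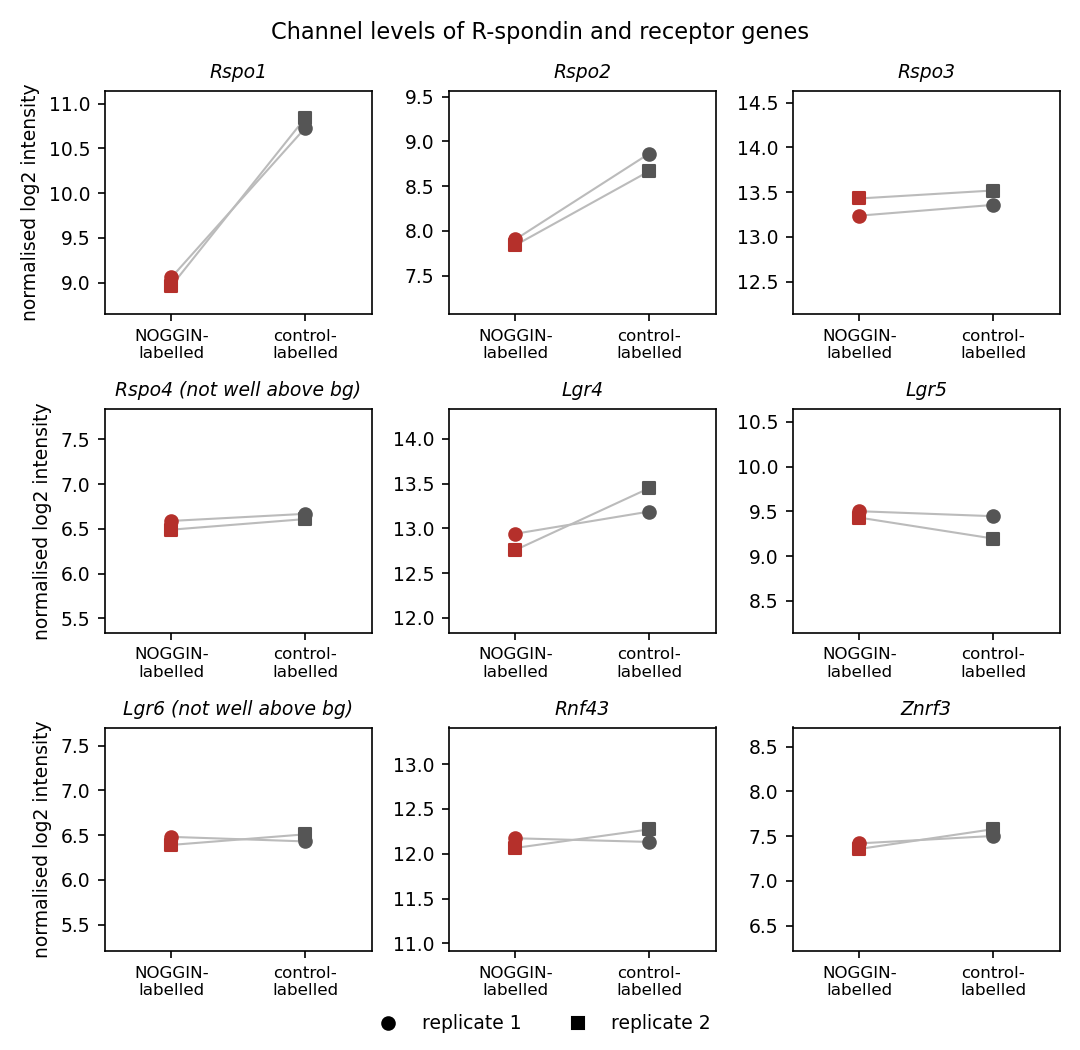
Normalised log2 intensity of each gene's probe in the NOGGIN-labelled (red, left) and control-labelled (grey, right) channel, with circles for replicate 1, squares for replicate 2 and a line joining the channels of an array. Every panel spans the same number of log2 units around its own centre. The Rspo1 lines are the steepest (8.96 to 9.06 in NOGGIN-labelled against 10.73 to 10.84 in control-labelled channels), followed by those of Rspo2, while the Rspo3, Lgr5 and Rnf43 levels overlap between the conditions.

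Of the receptor genes, none passed the test, and Lgr4 came nearest to it. Lgr4, a broadly expressed receptor that is also needed for normal kidney development in mice, had levels of 12.94 and 12.76 in the NOGGIN-labelled channels, against 13.19 and 13.45 in the control-labelled channels. The conditions did not overlap, but the arrays differed in size. The log2 ratio of Lgr4 was -0.25 on replicate 1 and -0.69 on replicate 2, a mean of -0.47 ± 0.31 (SD, n = 2) with an unadjusted p of 0.0113 and an adjusted p of 0.0941 in limma. Its spots agreed closely within each array, with spot SDs of 0.047 and 0.040, so the gap between the arrays is larger than the spread of spots. Of all genes tested, 4.37% had a larger SD between the arrays than Lgr4. Its 95% interval, -0.78 to -0.16, corresponds to 1.12-fold to 1.71-fold lower.

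Lgr5, a marker of stem cells in the intestine, had levels of 9.50 and 9.43 in the NOGGIN-labelled channels, against 9.45 and 9.20 in the control-labelled channels, which overlap. It was the 1 tested gene of the 7 with a mean above 0, at 0.14 ± 0.13 (SD, n = 2; adjusted p = 0.371, limma), and its 8 spots were all above 0, from 0.0047 to 0.27. Its interval, -0.064 to 0.35, leaves room for a value up to 1.28-fold higher. Lgr6, a marker of stem cells in the skin, had 0 spots well above background in any channel. The Lgr6 levels were 6.48 and 6.39 in the NOGGIN-labelled and 6.43 and 6.51 in the control-labelled channels.

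Neither ligase gene passed. Rnf43 had levels of 12.17 and 12.07 in the NOGGIN-labelled channels, against 12.13 and 12.27 in the control-labelled channels, which overlap. Its log2 ratio had opposite signs on the arrays, 0.041 on replicate 1 and -0.21 on replicate 2, with a mean of -0.083 ± 0.17 (SD, n = 2; adjusted p = 0.657, limma). Znrf3, the other ligase gene, had levels of 7.42 and 7.36 in the NOGGIN-labelled channels, against 7.50 and 7.58 in the control-labelled channels. These do not overlap, though the closest pair differed by only -0.083. The mean log2 ratio of Znrf3 was -0.15 ± 0.098 (SD, n = 2; adjusted p = 0.324, limma), and its interval, -0.35 to 0.047, leaves room for a value up to 1.28-fold lower. On replicate 2 it rests on 3 of 4 spots, since 1 was flagged as an outlier.

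**Figure D2:**
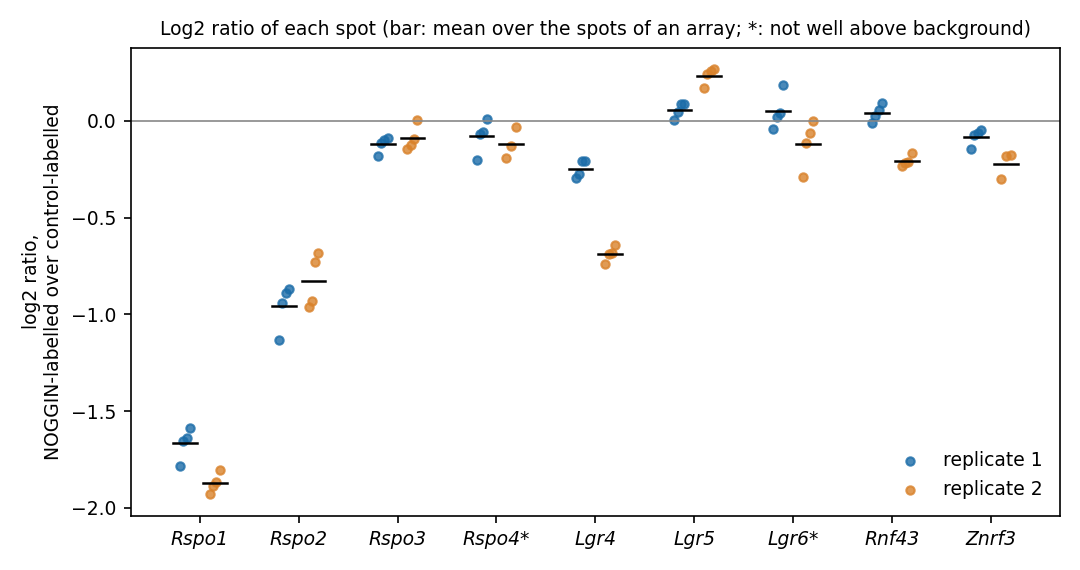
Log2 ratio of every spot used (points, blue for replicate 1 and orange for replicate 2) and the mean over the spots of an array (bars). Spots of Rspo1 and Rspo2 lie below -0.68 on both arrays, and those of Lgr4 form separate groups, from -0.30 to -0.21 on replicate 1 and from -0.74 to -0.64 on replicate 2.

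Counted together, 2 of the 7 tested genes were lower, 0 were higher and 5 did not pass, where 7.97% of all 21337 genes passed in either direction, 4.03% as lower and 3.95% as higher. At an unadjusted p under 0.05 in limma, 3 of the 7 were lower (Rspo1, Rspo2 and Lgr4), where 23.2% of all genes reached it in either direction and 11% as lower. When arrays were centred on the median in place of loess, 0 of the 7 and 0 of all genes passed, with Rspo1 at -1.79 (adjusted p = 0.0868, limma) and Rspo2 at -0.90 (adjusted p = 0.0901). Rspo1 and Rspo2 were also the 2 whose ratio reached 1.5-fold with 1 sign on each array, which held for 2.9% of all genes (1.55% as lower, 1.35% as higher). Levels of the conditions did not overlap for 4 of the 7, which is no more than a description, since this held for 51.2% of all genes. The median log2 ratio of the 7 was -0.15, against 0.00083 over all genes tested. With 7 tested genes chosen by name, these shares are given without a test.

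**Figure D3:**
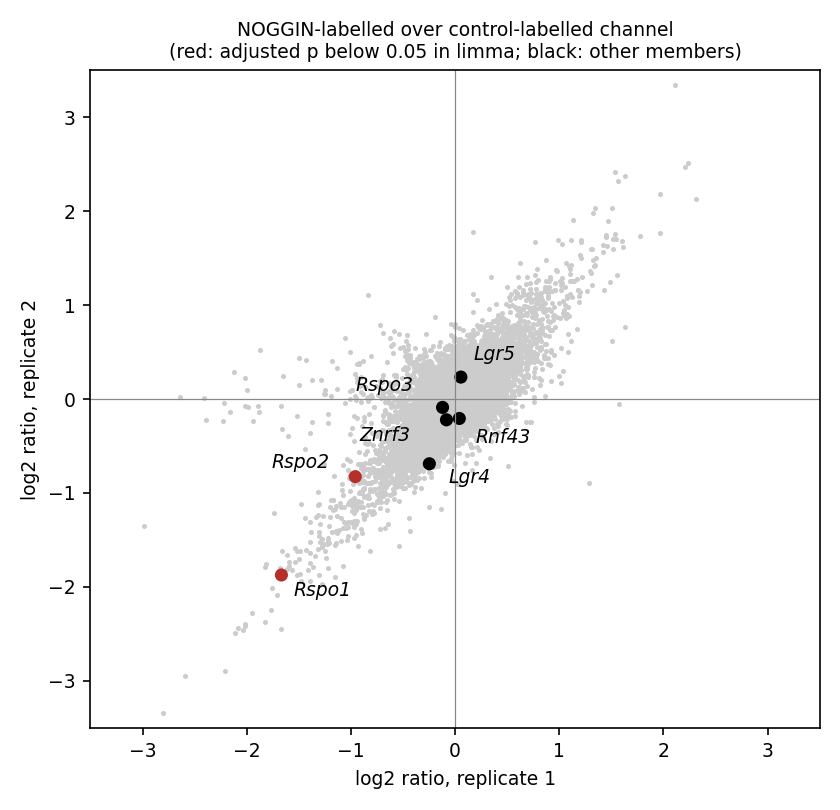
Log2 ratios of replicate 1 (horizontal axis) and replicate 2 (vertical axis) for all 21337 genes tested (grey) and the 7 tested members (red where adjusted p was below 0.05, otherwise black). Rspo1 lies near the lower end of the cloud, at -1.67 and -1.87, and Rspo2 at -0.96 and -0.83, while the others lie in the dense centre or, for Lgr4, at its lower edge.

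Nearest genes were sought among those with a symbol, with predicted and clone names passed over. Among them, Meox1, a homeobox gene, was nearest to Rspo1 in the plane of the arrays' log2 ratios. Its Euclidean distance over 2 arrays was 0.074. Casq2, which encodes a calcium-binding protein of the sarcoplasmic reticulum, followed at 0.089, and Ebf2, a transcription factor gene, at 0.11. Their mean log2 ratios were -1.74 for Meox1, -1.71 for Casq2 and -1.70 for Ebf2. Nearest to Rspo2 were Tnc, which encodes the matrix protein tenascin C, at 0.046, Chd7, a chromatin remodeller gene, at 0.049, and Cdc42ep3 at 0.052, with means of -0.91 for Tnc, -0.87 for Chd7 and -0.91 for Cdc42ep3. Likeness here rests on 2 ratios per gene.

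Of 14 tested WNT ligand genes, whose products the R-spondins make more effective, 7 were lower, 0 were higher and 7 did not pass. In limma 8 were lower and 2 higher at an unadjusted p under 0.05. The list median was -0.38, and the other 5 of the 19 listed were not well above background. For this list and those below, the shares over all genes tested are 7.97% passing, 4.03% as lower and 3.95% as higher. At an unadjusted p under 0.05 in limma the share is 23.2% in either direction, 11% as lower. The lists were not tested against these shares. Wnt6 was at -1.40 ± 0.020 (SD, n = 2; adjusted p = 0.00341, limma), Wnt10a at -1.16 ± 0.21, Wnt9a at -0.92 ± 0.24 and the dim Wnt3 at -0.77 ± 0.18. With median centring in place of loess, 0 genes of this and the other pathway lists passed, against 28 of the 85 tested, and 39 had an unadjusted p under 0.05. Secreted WNT antagonists went in both directions, with 4 of 12 tested higher, 2 lower and 6 not passing, and a list median of 0.10. Counted at an unadjusted p under 0.05 in limma, 5 antagonists were higher and 3 lower. Dkk2 and Wif1 were at 1.25 ± 0.20 and 0.93 ± 0.071, and Sfrp5 and Sostdc1 at -1.06 ± 0.058 and -1.03 ± 0.053.

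Of 16 Frizzled and other WNT receptor genes, whose products include RNF43 and ZNRF3 substrates, 1 was higher, 2 lower and 13 did not pass. In limma 1 was higher and 7 were lower at an unadjusted p under 0.05, where 11% of all genes were lower. The list median was -0.15. Fzd9 was higher by 1.13 ± 0.15 (SD, n = 2; adjusted p = 0.00544, limma). Ror2, a receptor for WNT5A, was at -0.80 ± 0.12 and Fzd2 at -0.43 ± 0.14 (adjusted p = 0.0455). Fzd7 at -0.54 ± 0.28 did not pass (adjusted p = 0.0558), nor did the coreceptor genes Lrp5 at -0.13 ± 0.012 and Lrp6 at -0.072 ± 0.079. Heparan sulfate proteoglycans can serve RSPO2 and RSPO3 where LGR receptors are lacking. Of their 10 core protein genes 1 was lower, Gpc4 at -0.72 ± 0.12 (adjusted p = 0.0119, limma), 0 were higher and 9 did not pass. Counted at an unadjusted p under 0.05 in limma, 3 core genes were lower and 0 higher, with a list median of -0.15. Bmpr1a, a BMP receptor gene whose product RSPO2 has been reported to bind together with ZNRF3 in frog embryos, was at 0.33 ± 0.14 and did not pass (adjusted p = 0.092, limma).

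Inside the cell, 0 of 16 genes of WNT signal transducers passed in either direction in limma, and their list median was -0.052. Among them 2 were higher and 0 lower at an unadjusted p under 0.05. Ctnnb1, which encodes beta-catenin, was at 0.23 ± 0.27. The canonical WNT readout genes had 1 of 8 higher, 1 lower and 6 not passing, with a list median of -0.016. Each direction held 2 readout genes at an unadjusted p under 0.05 in limma. Sp5 was higher by 0.65 ± 0.34 (SD, n = 2; adjusted p = 0.0467, limma) and Tnfrsf19 was at -1.27 ± 0.33 (adjusted p = 0.00884). Axin2, a common readout of canonical WNT signalling, gave -0.028 on replicate 1 and -0.60 on replicate 2 and did not pass (mean -0.31 ± 0.40; adjusted p = 0.28), and Lef1 at 0.0051 ± 0.13 did not pass either. Rnf43, Znrf3 and Lgr5, also WNT targets in many tissues, did not pass as described above.

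**Figure D4:**
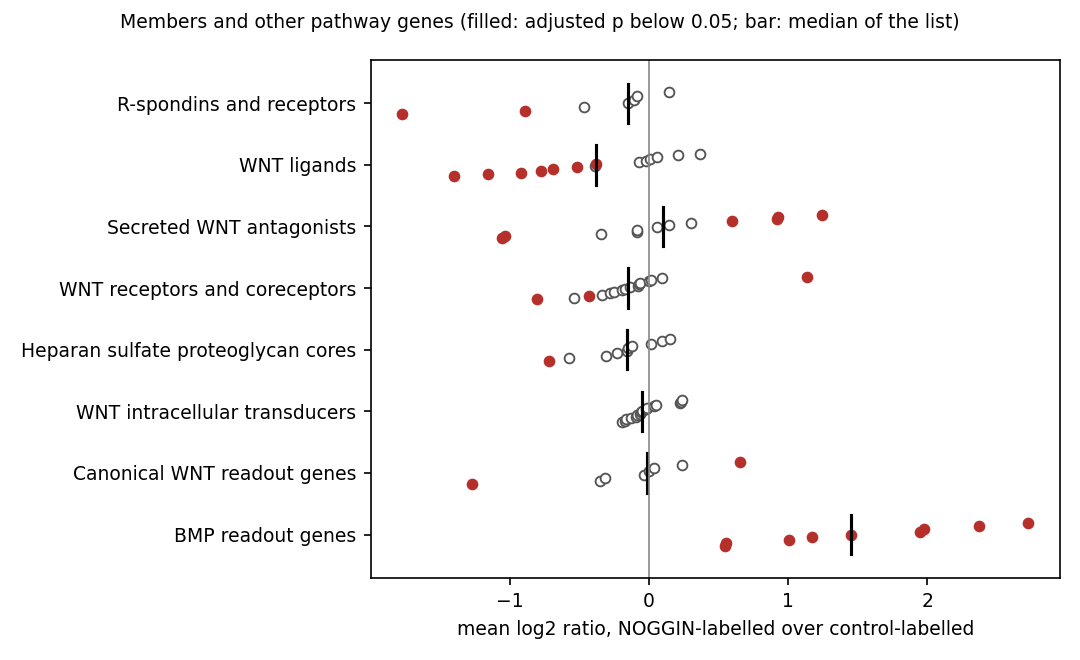
Mean log2 ratio of each tested gene, NOGGIN-labelled over control-labelled channel, by list (rows), filled where adjusted p was below 0.05 in limma, with the median of each list as a bar. Rspo1 at -1.77 and Rspo2 at -0.89 stand at the left of the top row, the 16 transducer genes lie between -0.19 and 0.24, and the 9 BMP readout genes lie at the right, between 0.55 and 2.73.

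The explants carried markers of both ureteric tissues, with all 7 mesenchymal and all 7 epithelial markers well above background. Of the mesenchymal markers 2 were higher and 1 lower, Tbx18 at 1.26 ± 0.27, Tcf21 at 0.62 ± 0.14 and Aldh1a2 at -0.88 ± 0.31, and of the epithelial ones 1 was higher, Foxa1 at 0.55 ± 0.0089, and 0 lower. At an unadjusted p under 0.05 in limma, 3 epithelial markers were higher and 0 lower. The summed level of the mesenchymal markers, as linear normalised intensity, was 231000 to 263700 in the NOGGIN-labelled and 253000 to 277800 in the control-labelled channels. Of 4 mesothelial markers 1 was lower, Wt1 at -0.81 ± 0.39 (SD, n = 2; adjusted p = 0.0354, limma), and 0 were higher, also at an unadjusted p under 0.05, with Msln at -0.24 ± 0.20, Lrrn4 at -0.039 ± 0.14 and Upk3b at 0.24 ± 0.25. Their summed level was 6565 to 8263 in the NOGGIN-labelled channels and 10970 to 12180 in the control-labelled channels, so it was lower along with Rspo1 and Rspo2. Wt1 makes up 75% of this sum, averaged over the channels, and the list median was -0.14. The part of these cells in the values of Rspo1 and Rspo2 was not tested. Of 5 nephron progenitor and renal stroma markers 1 was lower, Foxd1 at -0.80 ± 0.20 (adjusted p = 0.0137), and 0 higher (2 at an unadjusted p under 0.05 in limma), with summed levels of 49120 to 52760 in the NOGGIN-labelled and 55500 to 61150 in the control-labelled channels. Foxd1 makes up 40.8% of this sum. The other 4 markers did not pass and had means above 0, with Six2 at 0.064 ± 0.082, Cited1 at 0.075 ± 0.051, Eya1 at 0.22 ± 0.095 and Osr1 at 0.33 ± 0.14, and the list median was 0.075. The part of these cells was not tested either. Summed levels were higher for epithelium, at 254000 to 254500 in the NOGGIN-labelled and 217000 to 237500 in the control-labelled channels, and for neurons and glia, at 88300 to 102900 in the NOGGIN-labelled and 77300 to 82490 in the control-labelled channels. Those for endothelium were 25970 to 29810 in the NOGGIN-labelled and 22400 to 25130 in the control-labelled channels. Their part was not tested.

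In limma 0 of 5 endothelial, 0 of 4 macrophage, 0 of 5 neuronal and glial, 0 of 4 erythroid and 0 of 3 gonadal markers passed among those tested. At an unadjusted p under 0.05, 2 endothelial markers were higher, 2 macrophage markers were lower, and neurons and glia had 1 marker each way. Erythroid cells and gonad had 0. The list medians were 0.19 for endothelium, -0.32 for macrophages, 0.087 for neurons and glia, 0.019 for erythroid cells and -0.075 for gonad. The gonadal genes Amh and Lhx9 were not well above background, nor was Fcgr1 among the macrophage markers.

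**Figure D5:**
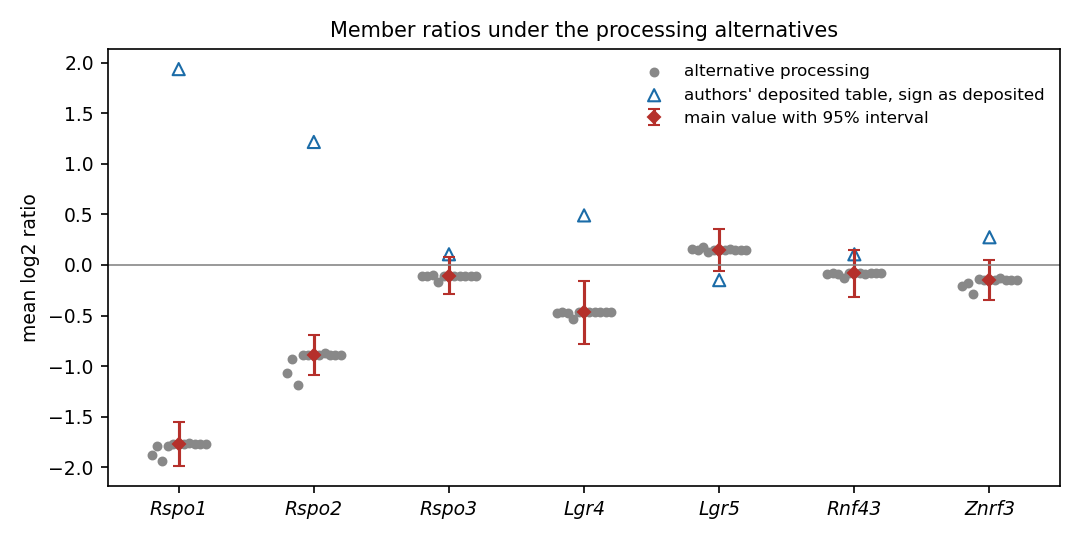
Mean log2 ratio of each tested gene with its 95% interval (red diamonds), under 11 other ways of processing the scanner files (grey points) and from the authors' deposited table with its sign as deposited (blue open triangles). Rspo1 ranges from -1.94 to -1.76 and Rspo2 from -1.19 to -0.87 over the 11, and the deposited table has the opposite sign for all 7 genes.

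In the authors' deposited table, which gives a signed fold change per probe and array, Rspo1 stands at 3.48 on replicate 1 and 4.22 on replicate 2. Rspo2 stands there at 2.33 and 2.32, and Lgr4 at 1.23 and 1.61. The authors' deposited table gives 1.08 and 1.08 for Rspo3, 1.10 and 1.33 for Znrf3, -1.06 and -1.16 for Lgr5 and -1.03 and 1.19 for Rnf43. Rspo4 and Lgr6 are listed at exactly 1 on both arrays in the authors' deposited table, as are 11706 probes on replicate 1 and 11561 on replicate 2. In size, these values put Rspo1 and Rspo2 furthest from 1 and Lgr4 next, as the scanner files did.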

How the data were processed

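Each deposited scanner file gives linear intensities and quality flags for every spot. The submitters' processing notes name Agilent Feature Extraction 10.7.3.1. Their log10 ratio of red over green is the software's own value per the file headers and was not used. The authors' deposited table holds a signed fold change per probe, treated as a score with normalisation and direction not given in the sources used here. The median of each column is 1.

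Of 39429 gene probes in 4 spots each, flagged outlier spots (3.69% on each array), a filler probe and control spots were left out. No spot was saturated, and per channel 67.3% to 74.3% of spots were well above background. The background was corrected with normexp (offset 50), arrays were normalised with loess and spots averaged. Probes with a share above 0.5 of spots well above background on both arrays, in at least 1 condition, were kept (26712), and the brightest one stood for a gene. Symbols came through accessions and RefSeq. Levels are per channel after Aquantile scaling. Log2 ratios were tested against 0 in limma 3.58.1 (R 4.3.3; two-sided, Benjamini-Hochberg over all genes, threshold 0.05), with 1 residual and 4.12 prior degrees of freedom. The number of arrays, 2, limits the precision. The fit was tested on simulated data.

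The genes, lists and tests were chosen with earlier results of these data known, and of each list up to 4 passing genes with the largest ratios were named, besides 9 genes fixed by name and markers. For each member that passed, the 3 nearest genes with a symbol were named, with predicted and clone names passed over. Alternatives were other background corrections, normalisations, filters, summaries, tests, thresholds, the deposited table and each array alone.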

Additional observations from a re-analysis of the deposited data

How the results depend on the processing

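Over 11 other ways of processing the scanner files, Rspo1 and Rspo2 kept their direction in all and passed in 10 each. Rspo3, Lgr4, Lgr5, Rnf43 and Znrf3 kept theirs and passed in 0 (Lgr4 with limma adjusted p from 0.0584 to 0.212). Several of these ways change only the filter, the test or the scaling of levels, or average over probes. They leave the ratio of a gene with 1 probe as it is, so its direction could not change there. Rspo1 and Rspo2 did not pass with median centring in place of loess. There Rspo1 was at -1.79 (adjusted p = 0.0868) and Rspo2 at -0.90 (adjusted p = 0.0901), and the counts passing in limma were 0 of the members, 0 of all genes and 0 of the pathway lists, against 2, 1701 and 28. At an unadjusted p under 0.05 they were 3, 3572 and 39. With median centring, 2 members differed 1.5-fold with 1 sign on both arrays, as did 621 of all 21337 genes tested. The cause of the lost calls was not tested. In the main processing, 618 genes counted by the 1.5-fold criterion in place of 1701. Turning the sign reversed each value by construction, to 1.77 for Rspo1, 0.89 for Rspo2, 0.10 for Rspo3, 0.47 for Lgr4, -0.14 for Lgr5, 0.083 for Rnf43 and 0.15 for Znrf3. The authors' deposited table gave 1.94 for Rspo1, 1.22 for Rspo2, 0.11 for Rspo3, 0.49 for Lgr4, -0.15 for Lgr5, 0.11 for Rnf43 and 0.27 for Znrf3 on the log2 scale. With 1 array left there is no residual spread and so no test. The values then run from -1.87 to -1.67 for Rspo1, -0.96 to -0.83 for Rspo2, -0.12 to -0.089 for Rspo3, -0.69 to -0.25 for Lgr4, 0.055 to 0.23 for Lgr5, -0.21 to 0.041 for Rnf43 and -0.22 to -0.083 for Znrf3. The main test is already paired, because each ratio pairs the channels of 1 array, and no further pairing was possible. No other probe of a member could be tried, since each has 1. Dim signal limits Rspo4 and Lgr6, and 2 arrays limit every value. Among the tested members, the mean log2 signal was lowest for Znrf3 (7.46) and Rspo2 (8.32), and their sizes moved with the background correction. With normexp offset 0, Znrf3 was at -0.21 and Rspo2 at -1.07. With the software's processed signals, median centred, they were at -0.29 and -1.19.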
